A study of Mus musculus with 28 samples.

Results

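Small leucine-rich proteoglycans (SLRPs) are secreted proteins built on a horseshoe of leucine-rich repeats, most of which carry chondroitin, dermatan or keratan sulfate chains. They are made mainly by connective tissue cells, bind the surface of collagen fibrils, set how thick and how regularly spaced those fibrils become, and hold growth factors such as TGF-beta in the matrix. In peripheral nerve, fibroblast-like cells lay down such a matrix between the axons with their Schwann cells, around each fascicle and around the whole nerve. The 10 SLRP genes described here were taken as a named gene family, by a rule that uses no measured value, although earlier results of these data were known when the family was chosen: decorin (Dcn), biglycan (Bgn) and asporin (Aspn) of class I, lumican (Lum), fibromodulin (Fmod), Prelp, keratocan (Kera) and osteomodulin (Omd) of class II, osteoglycin (Ogn) of class III and podocan (Podn) of class V. All 10 were among the 41605 genes of the count table, and all 10 passed the filter on low counts, as did 17700 genes in all. Omd and Kera, the least counted of the 10, held 3480 and 2653 reads over all libraries, against 653605 for Dcn.

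The data were bulk poly-A RNA sequencing of wild-type C57BL/6J mouse nerve at 7 stages, with 4 libraries at each and 28 in all. E13 and E17 are embryonic days as labelled, P1, P5, P14, P24 and P60 are postnatal days, and no transgene or treatment is given for any stage. Each E13 library, although labelled sciatic nerve, was pooled from various peripheral nerves of 2 embryos and each E17 library from the sciatic nerves of 2 embryos, whereas each postnatal library came from the sciatic nerves of 1 mouse, and the study took 2 males and 2 females per stage without a label for the single libraries. From E17 on, the outer sheaths (epineurium and perineurium) were peeled off by hand as far as possible, so E13 differs from the later stages in tissue and handling as well as in age, and these cannot be told apart.

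Library totals ran from 13899895 to 37662780 counts. Values are given as CPM, read counts scaled to a common library total with TMM factors, unless stated otherwise. The summed CPM of 6 Schwann cell markers rose from 422 to 906 over the E13 libraries to 99856 to 115909 at P14, and 4 neuronal markers summed to 802 to 1680.4 at E13 and to 21.7 to 30.7 at E17. Adipocyte markers varied most between late libraries, from 11 to 393 at P24, and the 5 epineurial markers summed to 18.8 to 34.6 at P5 and 82.2 to 112 at P14 in spite of the peeling. Counts of protein-coding genes trended with GC content, relative to the rest of the stage, by -1.28 and -0.59 (log2 per 10 percentage points of GC) in E13 replicate 1 and P1 replicate 1 and by 1.00 in E13 replicate 4. The exons of Aspn, Omd and Ogn had 34.3% to 36.3% GC, the lowest of the 10. The calls were also made without those 3 libraries and with the GC trend removed from every library.

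In the GENCODE M21 annotation of GRCm38, 8 of the 10 genes lay in groups. Dcn (chr10:97479609-97518143), Lum (chr10:97565128-97572703) and Kera (chr10:97606879-97613692) followed each other on the plus strand of chromosome 10, with gaps of 46984 and 34175 bases. Aspn (chr13:49544443-49567565), Omd (chr13:49582462-49592822) and Ogn (chr13:49608046-49624501) did so on chromosome 13, with gaps of 14896 and 15223 bases, all within the opposite-strand gene Cenpp. Prelp (chr1:133910304-133921414, minus strand) and Fmod (chr1:134037254-134048277, plus strand) lay 115839 bases apart on chromosome 1, while Bgn (chrX:73483602-73495933) and Podn (chr4:108014791-108096445) stood alone on the X chromosome and chromosome 4. The coding transcripts follow the family classes in part. They have 8 exons in each class I gene, 7 in Ogn and 13 in Podn. Of the class II genes, Lum, Fmod, Prelp and Kera have 3 but Omd has 4. Cenpp held 3868 counts in all libraries together, against 600685 for Ogn, 12977 for Aspn and 3480 for Omd, and Podn shared its strand and part of its span with Scp2 (46805 counts against 5944), so that low values of Omd and Podn are uncertain where reads fell in shared sequence.

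The chromosome 13 neighbours had unlike courses, described below, and the 250 bases before the RefSeq start of each (GRCm38.p6, plus strand, 5′ to 3′) are shown to set the 3 beside each other. Kera, which fell after birth while its chromosome 10 neighbours rose, is shown with them. Its RefSeq start differs from the GENCODE one, so that by the GENCODE coordinates above the Kera window lies inside the gene. The other 3 windows end before the GENCODE start of their gene. Capitals mark matches, on either strand, to the TATA box (TATAAA), the CCAAT box (CCAAT), the GC box (GGGCGG) or the AP-1 site (TGANTCA).
Aspn, chr13:49544193-49544442: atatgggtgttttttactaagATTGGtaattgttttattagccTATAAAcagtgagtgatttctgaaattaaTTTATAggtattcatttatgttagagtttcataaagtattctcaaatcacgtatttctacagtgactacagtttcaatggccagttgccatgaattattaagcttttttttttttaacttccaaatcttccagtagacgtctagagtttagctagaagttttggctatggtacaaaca
Omd, chr13:49582212-49582461: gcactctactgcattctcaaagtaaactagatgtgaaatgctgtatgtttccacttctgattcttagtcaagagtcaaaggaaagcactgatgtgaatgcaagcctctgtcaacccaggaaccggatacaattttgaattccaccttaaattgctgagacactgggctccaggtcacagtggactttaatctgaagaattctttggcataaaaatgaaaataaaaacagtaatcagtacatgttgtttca
Ogn, chr13:49607765-49608014: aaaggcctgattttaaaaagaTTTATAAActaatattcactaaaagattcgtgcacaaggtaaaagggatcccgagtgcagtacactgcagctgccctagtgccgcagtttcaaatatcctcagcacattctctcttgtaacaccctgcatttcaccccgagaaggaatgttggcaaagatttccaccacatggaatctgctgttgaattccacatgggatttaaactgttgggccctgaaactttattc
Kera, chr10:97606955-97607204: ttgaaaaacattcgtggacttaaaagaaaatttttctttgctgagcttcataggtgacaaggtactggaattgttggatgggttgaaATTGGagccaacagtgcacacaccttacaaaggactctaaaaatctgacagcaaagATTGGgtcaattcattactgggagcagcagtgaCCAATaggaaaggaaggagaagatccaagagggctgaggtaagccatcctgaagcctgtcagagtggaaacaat
Aspn held 1 CCAAT and 2 TATAAA matches, the latter starting 207 and 178 bases before the start site. Ogn held 2 overlapping TATAAA matches on opposite strands, 229 and 227 bases before the start, Kera held 3 CCAAT matches and Omd none of the 4 motifs. Among all 32851 RefSeq windows of this length, 12.4% held TATAAA, 33.8% CCAAT, 32.7% GGGCGG and 6.75% TGANTCA. The windows of Aspn, Omd and Ogn had 30.0%, 38.4% and 42.0% GC, below the median of 52.4% over all windows, and the table matched 8 of the 10 genes.

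Together the 10 genes took a larger mean share of all counts at each stage than at the one before. At P60 most of it came from Dcn and Ogn, whose means were 3244 and 2361 CPM where the 10 summed to 5648 to 7368 CPM in the libraries. The share of the 10 of all counts was 0.0391% ± 0.00866 (SD, n = 4) at E13, 0.106% ± 0.00783 at E17, 0.17% ± 0.00862 at P5, 0.314% ± 0.0304 at P14 and 0.596% ± 0.0863 at P60. All 10 changed over the 7 stages by the edgeR quasi-likelihood test and by at least 2-fold between stage means, as did 70.3% of all genes tested. Dcn, Prelp, Omd, Ogn and Podn were highest at P60, under each scaling tried, as were Lum at P24 and Aspn and Kera at E17. Bgn was about level between P24 and P60, with the higher mean CPM at P24 (229.6 against 225) and the higher mean of log2 CPM at P60. Fmod was highest at P60, but at E13 when only library size was used.

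**Figure D1:**
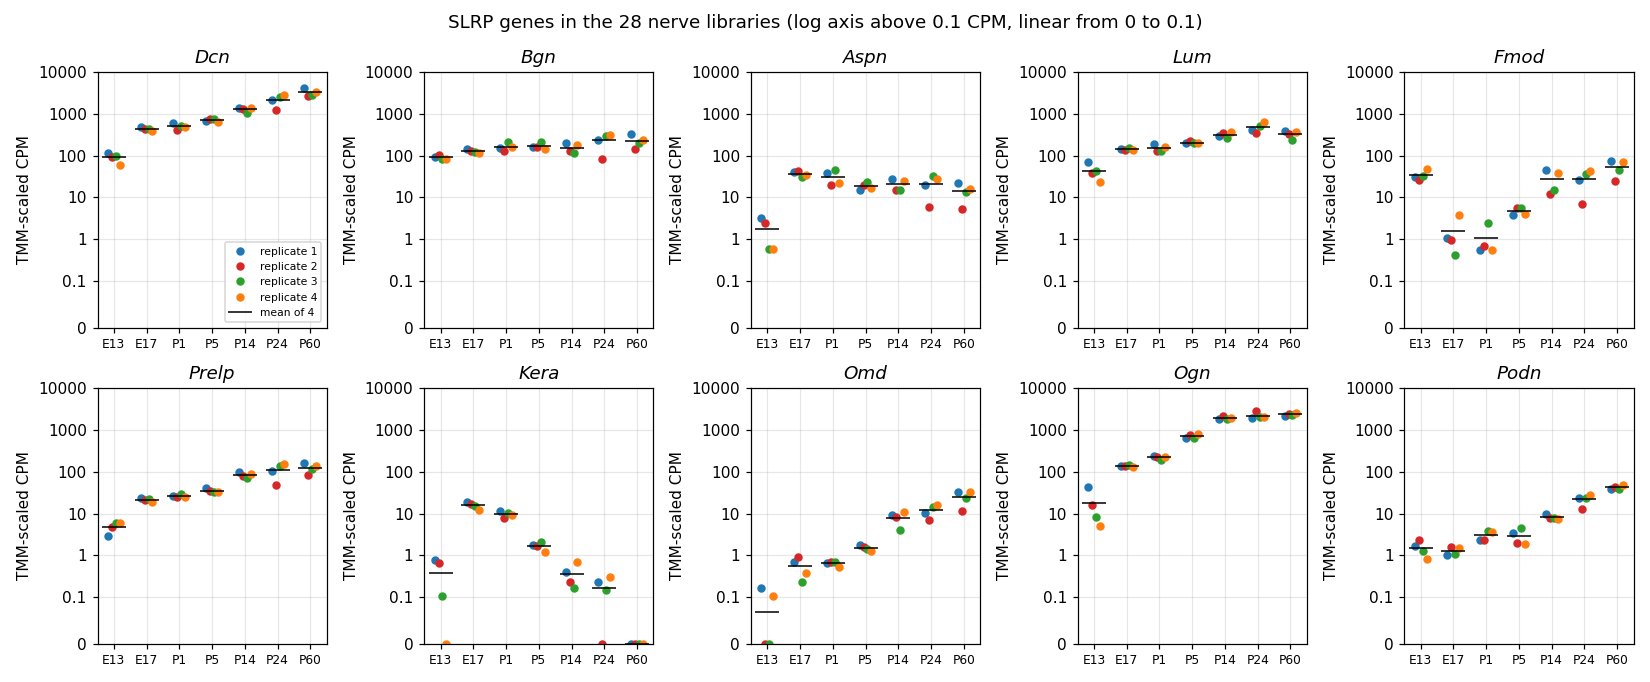
TMM-scaled CPM (vertical axis, logarithmic above 0.1) of the 10 SLRP genes in each of the 4 libraries of 7 stages, with the mean of the 4 as a bar. Dcn and Ogn reach means of 3244 and 2361 CPM at P60, Kera rises to a mean of 16.1 at E17 and is at 0 in the P60 libraries, and Fmod dips between E13 and P14.

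The largest counts of changed SLRP genes fell from E13 to E17 and from P5 to P14, the steps in which the most genes of all kinds changed as well with TMM scaling. The second place was narrow, with 2127 genes from P5 to P14 and 2074 from E17 to P1. It turned to 2143 and 2251 with library size only. A gene was called when its adjusted p was under 0.05 and its change at least 2-fold. Between E13 and E17, 8 of the 10 were called, where 35.5% of all genes were. Of these, 7 rose (14.2% of all genes rose) and 1 fell (21.2% fell), and the median log2 fold change was 2.20 over the 10 against -0.08 over all genes. From E17 to P1, 1 rose, Podn (background 11.7% called, 6.31% higher and 5.41% lower). From P1 to P5, 3 rose and 1 fell (background 5.84% called, 4.05% higher and 1.79% lower). From P5 to P14, 5 rose and 1 fell, so that 6 of 10 were called where 12% of all genes were (7.11% higher and 4.91% lower), with a median log2 fold change of 1.06 over the 10 against 0.00 over all genes. From P14 to P24, 1 rose, again Podn (background 2.65% called, 1.51% higher and 1.14% lower). From P24 to P60, 1 rose, Omd (background 5.96% called, 2.55% higher and 3.41% lower). Across the span that used peeled sciatic nerve only, P60 against E17, 9 of 10 were called where 39.7% of all genes were. Of these, 7 rose (22.2% of all genes) and 2 fell, Aspn and Kera (17.5%), and Bgn passed the adjusted p only. Because RNA was measured in bulk, fewer cells of a type and less RNA per cell cannot be told apart in any of these changes.

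**Figure D2:**
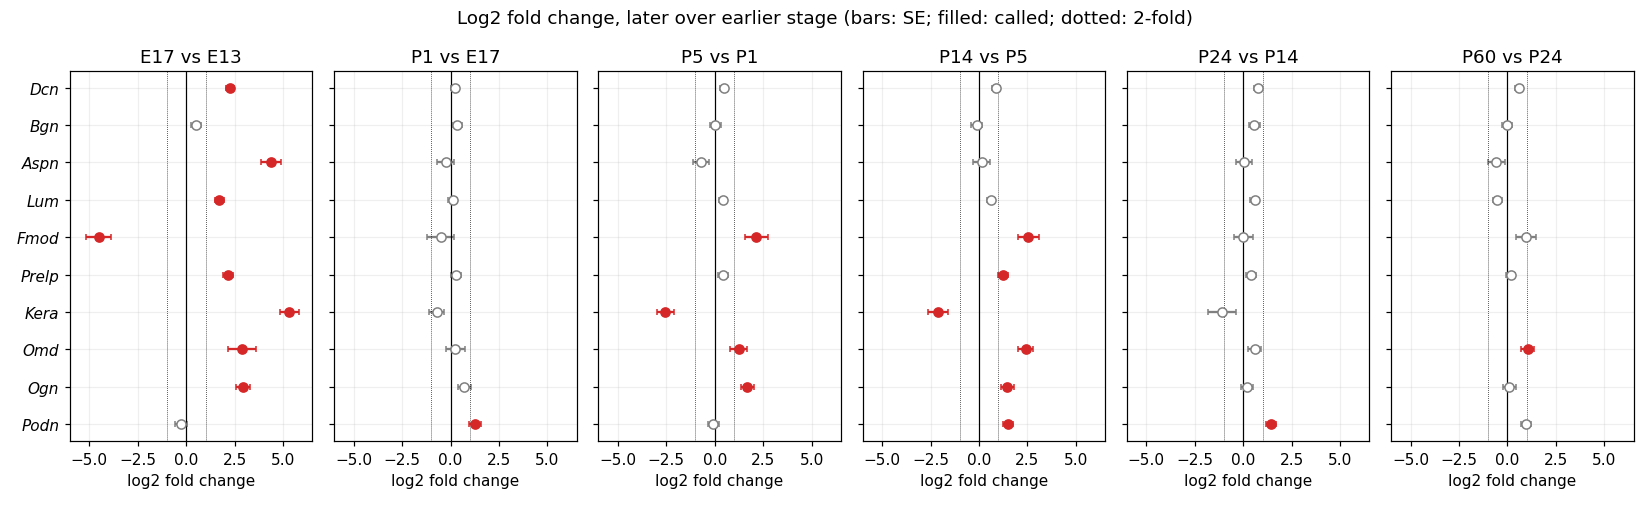
Log2 fold change of each SLRP gene (horizontal axis, later over earlier stage, bars are SE) in the 6 adjacent comparisons, with called genes filled and dotted lines at 2-fold. Most filled points lie in the E17 vs E13 and P14 vs P5 panels, and Kera in P60 vs P24, near 0 counts in both stages, is left out.

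Decorin, which binds along type I collagen fibrils and can bind TGF-beta, had a higher mean at each stage than at the one before. Its libraries read 114, 91.2, 95.9 and 58.4 CPM at E13 and 472, 422, 441 and 391 at E17, groups far apart (log2 fold change 2.26 ± 0.21 (SE), adjusted p = 4.68e-10). They read 668, 744, 735 and 630.2 at P5 and 1382, 1323, 1013 and 1383 at P14, all higher than at P5, a rise that passed the adjusted p but not the 2-fold minimum (0.88 ± 0.20 (SE), adjusted p = 0.0014). At P24 the values were 2147, 1201, 2451 and 2764 and at P60 4139, 2588, 2873 and 3375, with replicate 2 of P24 below every P14 library but 1. The steps from P14 to P24 (0.75 ± 0.20 (SE), adjusted p = 0.0232) and from P24 to P60 (0.60 ± 0.20 (SE), adjusted p = 0.0398) also passed the adjusted p and stayed under 2-fold. Neither held throughout: the former missed the adjusted p without P14 replicate 2 or 3 or P24 replicate 1, 3 or 4 (log2 fold changes of 0.60 to 0.76), and the latter without P24 replicate 1 or 2 or P60 replicate 1 or 4 (0.40 to 0.60). Summed over E17 to P60 the fitted gain was 7.52-fold.

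Biglycan, the closest relative of decorin and usually substituted with a pair of glycosaminoglycan chains, had the smallest range of the 10, with stage means that differed by at most 1.26 on the log2 scale. It measured 90.6 ± 10.02 CPM (mean ± SD, n = 4) at E13, 168 ± 28.4 at P5 and 225 ± 74.4 at P60, and no adjacent step passed the test. Over E17 to P60 its log2 fold change was 0.80 ± 0.27 (SE), adjusted p = 0.0119, with overlapping libraries (146, 132, 124 and 115 against 321, 143, 201 and 233 CPM), and without P60 replicate 1 it was 0.57 (adjusted p = 0.0758). The ratio of Bgn to Dcn counts within a library, from which library size drops out, was lower at P60 than at E13 but did not fall at every step. It was 0.828 to 1.38 at E13, 0.282 to 0.312 at E17, 0.26 to 0.397 at P1, 0.0949 to 0.141 at P14 and 0.0552 to 0.0776 at P60.

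Asporin, a class I protein with an aspartate-rich end that carries no glycosaminoglycan chain, was highest at E17 and lower at P60. It read 3.21, 2.46, 0.578 and 0.579 CPM at E13 and 39.6, 42.4, 30.1 and 35.2 at E17, a rise of 4.39 ± 0.52 (SE), adjusted p = 3.86e-08 on the log2 scale. At P60 it read 22.6, 5.15, 13.4 and 16.1, all below the E17 libraries (-1.36 ± 0.44 (SE), adjusted p = 0.00913). No single step after E17 passed the test, and the spread between libraries was wide, from 5.75 to 31.8 CPM at P24.

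Lumican, a keratan sulfate proteoglycan of fibrils in cornea, skin and nerve sheath, had its highest mean at P24. Its libraries were at 69.2, 38.7, 42.1 and 23.3 CPM at E13, 144, 137, 153 and 132 at E17, 411, 339, 511 and 638 at P24 and 386, 335, 239 and 364 at P60. The rise from E13 to E17 was called (1.71 ± 0.23 (SE), adjusted p = 3.07e-07), that from P5 to P14 passed the adjusted p only (0.63 ± 0.22 (SE), adjusted p = 0.0323) and missed it without any one P5 library or without P14 replicate 2 or 4 (0.56 to 0.66), and the step from P24 to P60 did not pass (-0.52 ± 0.22 (SE), adjusted p = 0.114, libraries overlapping). Lum per Dcn within a library was 0.192 to 0.282 at P24 and 0.0832 to 0.129 at P60, 2 ranges that did not overlap.

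Keratocan, best known for the transparency of the cornea, was highest at E17 and P1 in this nerve. Its counts were 23, 16, 3 and 0 in the E13 libraries and 354, 329, 403 and 190 at E17, or 0.762, 0.646, 0.108 and 0 and 19.5, 17.4, 15.6 and 11.9 CPM, a rise of 5.31 ± 0.50 (SE), adjusted p = 2.22e-09 on the log2 scale (5.90 without E13 replicate 1). At P1 it still read 11.8, 8.08, 10.2 and 9.43 CPM, then fell to 1.75, 1.72, 2.1 and 1.21 at P5 (-2.55 ± 0.42 (SE), adjusted p = 0.000107) and to 0.409, 0.226, 0.163 and 0.684 at P14 (-2.14 ± 0.51 (SE), adjusted p = 0.00264). All 4 P24 libraries held 8 counts or fewer and none of the 4 P60 libraries held any. Against the upper limit that 0 counts allow in the shallowest P60 library (3 counts, 0.219 CPM), P60 was at least 73.4-fold lower than E17. Dcn and Lum, upstream on the same strand, rose from E17 to P60.

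Fibromodulin, which competes with lumican for a site on collagen and is prominent in tendon, was the only one of the 10 called lower at E17 than at E13. It read 30.6, 26.7, 32.7 and 49 CPM at E13 and 1.1, 0.951, 0.427 and 3.9 at E17 (-4.52 ± 0.63 (SE), adjusted p = 5.89e-07). E13 libraries came from a different dissection, so tissue and age cannot be told apart in this fall. At P1 the values were 0.547, 0.708, 2.44 and 0.558, at P5 3.79, 5.53, 5.52 and 4.04 (2.15 ± 0.61 (SE), adjusted p = 0.014) and at P14 45.2, 11.9, 14.7 and 38.8 (2.55 ± 0.54 (SE), adjusted p = 0.000687), so that P5 and P14 each lay wholly above the stage before. By P60 it had reached 75.9, 24, 44.5 and 69.1, a fitted change of 35.4-fold over E17. Both values rest in part on E17 replicate 4, the highest of its stage, since without it the log2 fold change was -5.45 from E13 to E17 and 6.07 from E17 to P60, against -4.52 and 5.14 with all libraries. The P1 to P5 call was lost when P1 replicate 1 or P1 replicate 4 was left out, the log2 fold change then being 1.95 or 1.93, and it was 2.96 without P1 replicate 3. Of the tendon markers, Tnmd and Mkx stayed under 3 CPM and Scx was at or near 0 after E13, while Thbs4, which made up nearly all of that list, summed with them to 483, 206, 393 and 378 CPM in the P60 libraries, lowest in replicate 2 as was Fmod; its part in the Fmod values was not tested.

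Prelp, a class II protein whose basic end binds heparan sulfate, tracked decorin most closely. It read 2.85, 4.68, 6.03 and 5.999 CPM at E13, 23.2, 21.1, 23 and 18.7 at E17, 97.2, 78.2, 69.6 and 90.4 at P14 and 161, 81.9, 115 and 141 at P60. The rises from E13 to E17 (2.14 ± 0.27 (SE), adjusted p = 9.16e-08) and from P5 to P14 (1.24 ± 0.24 (SE), adjusted p = 0.000279) were called. The root mean square difference between the centred log2 stage means of Prelp and Dcn was 0.218, the smallest of the 45 pairs among the 10, and the largest was 4.77, between Fmod and Kera.

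Osteomodulin, a class II protein first found in bone, came up from the edge of detection. Its counts were 5, 0, 0 and 2 at E13 and 13, 17, 6 and 6 at E17, which is 0.715, 0.898, 0.233 and 0.377 CPM at E17. The rise between them (2.89 ± 0.72 (SE), adjusted p = 0.00107) rests on these few counts and was 4.00 without E13 replicate 1. It read 1.79, 1.58, 1.41 and 1.29 CPM at P5 and 9.2, 8.36, 4.04 and 10.7 at P14 (2.41 ± 0.37 (SE), adjusted p = 1.42e-05), the firmest of its steps. At P60 the libraries were at 32.8, 11.4, 23.1 and 32.1, a fitted 45.3-fold over E17. The calls from P1 to P5 (1.23 ± 0.42 (SE), adjusted p = 0.0422) and from P24 to P60 (1.04 ± 0.34 (SE), adjusted p = 0.0349) were marginal, because leaving out any one library of P1 or P5 ended the former, with log2 fold changes of 1.14 to 1.30, and leaving out 1 of 5 libraries of P24 or P60 ended the latter (0.84 to 1.07). The latter call was also absent, among other alternatives, in the fit on the 2 stages alone and in limma-voom, which also did not call the rise from E13 to E17.

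Osteoglycin (mimecan), the class III member with a shorter run of repeats, gained more from E17 to P60 than Dcn, Lum, Bgn or Prelp, the other SLRP genes with mean levels over 100 CPM. Its libraries read 42.4, 16.5, 8.16 and 4.95 CPM at E13, where replicate 1 stood highest, and 137, 135, 142 and 129 at E17 (2.90 ± 0.36 (SE), adjusted p = 8.23e-08). Without E13 replicate 1, 1 of those with a strong GC trend, the rise was 3.77 on the log2 scale. It then moved to 242, 227, 194 and 219.9 at P1, 629, 752, 659.6 and 794 at P5 (1.68 ± 0.34 (SE), adjusted p = 0.000664) and 1784, 2195, 1819 and 1969 at P14 (1.45 ± 0.34 (SE), adjusted p = 0.00149), each stage wholly above the one before. Afterwards it held a plateau of 2212 ± 426 CPM (mean ± SD, n = 4) at P24 and 2361 ± 144 at P60, with no later step past the test. From E17 to P60 its fitted gain was 17.4-fold. Dcn kept rising after Ogn had levelled, and the ratio of Ogn to Dcn counts accordingly peaked in the middle of the timeline, at 0.29, 0.321, 0.322 and 0.329 in the E17 libraries, 1.29, 1.66, 1.79 and 1.42 at P14 and 0.529, 0.933, 0.804 and 0.749 at P60.

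Podocan, a class V protein that binds type I collagen, was called higher from E17 to P1, from P5 to P14 and from P14 to P24. It was at 1.04, 1.58, 1.09 and 1.51 CPM at E17 and 2.37, 2.29, 3.94 and 3.63 at P1 (1.24 ± 0.31 (SE), adjusted p = 0.00306). It read 3.5, 1.95, 4.45 and 1.87 at P5, 9.56, 7.91, 7.88 and 7.6 at P14 (1.5 ± 0.28 (SE), adjusted p = 0.000138), 24, 12.6, 23.4 and 28.4 at P24 (1.42 ± 0.26 (SE), adjusted p = 0.000921) and 39.8, 44, 37.8 and 48.9 at P60, and the P14, P24 and P60 libraries did not overlap each other. The last step passed the adjusted p just under 2-fold (0.95 ± 0.26 (SE), adjusted p = 0.0108), and without P24 replicate 2 it was 0.75 and missed the adjusted p. Its fitted gain over E17 was 32.8-fold.

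Levels of different genes were compared as CPM per kilobase of exon. With the union of all exons as length, Ogn stood at 920.0 ± 56.1 CPM per kb (mean ± SD, n = 4) at P60 and Dcn at 556 ± 116, ranks 23 and 38 among protein-coding genes, having been at ranks 590 and 386 at E17. Lum followed at 135 ± 26.5, then Bgn at 36.8 ± 12.2 and Prelp at 34.5 ± 9.41, the latter 2 within each other's spread. With the longest coding transcript as length, Bgn was at 92.8 and Prelp still at 34.5. Fmod at 16.1 ± 7.18, Omd at 11.1 ± 4.45 and Podn at 9.98 ± 1.15 formed a lower group in which neighbours differed by less than the spread of Fmod or Omd, with Aspn at 6.08 ± 3.07 and Kera at 0. Dcn and Ogn together made up 22.6% ± 2.95 and 9.12% ± 6.43 of the summed CPM per kb of the 10 at E13, 18.6% ± 1.76 and 64.4% ± 3.52 at P14, and 32% ± 4.2 and 53.7% ± 5.88 at P60 (each mean ± SD, n = 4). Which of Dcn and Ogn led also depended on the length used. Dcn has a union of exons of 5838 bases but a longest coding transcript of 1758, and with the transcript length its share at P60 was 59.6% ± 4.18 against 30.4% ± 4.95 for Ogn, and at P14 42% ± 2.58 against 44.1% ± 3.85. Under either length the share of Ogn was larger at P14 than at E13, and that of Bgn went from 22.5% ± 4.12 at E13 to 2.11% ± 0.548 at P60 (union of exons).

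**Figure D3:**
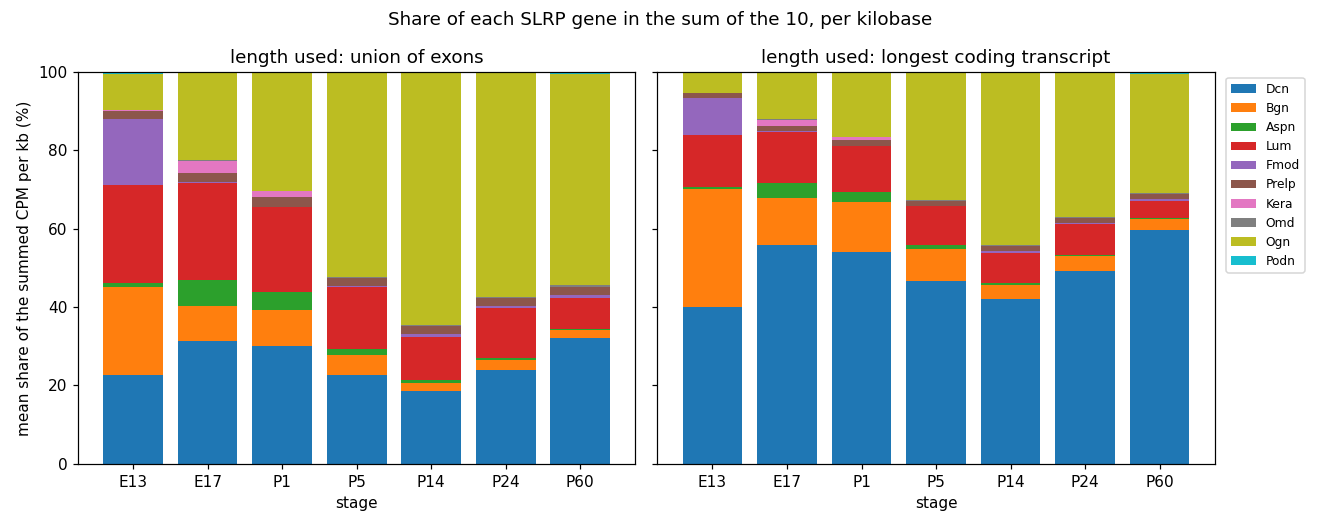
Mean share of each SLRP gene in the summed CPM per kb of the 10 (vertical axis, percent) at each stage, with the union of exons (left) or the longest coding transcript (right) as the length. Dcn and Ogn fill most of every postnatal bar, and Ogn is the larger at P60 on the left and Dcn on the right.

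Most of the fibrillar collagen genes fell between E17 and P60, while most SLRP genes rose. Of 11 fibrillar collagen genes, 8 rose and 1 fell from E13 to E17 (14.2% and 21.2% of all genes), and 2 rose and 8 fell from E17 to P60 (22.2% and 17.5% of all genes), with a median log2 fold change of -2.30 against 2.72 for the SLRP genes. Col3a1 went from 11337 ± 514 CPM at E17 to 6871 ± 2112 at P24 and 1157 ± 297 at P60, Col1a2 from 6747 ± 277 to 2038 ± 234 and Col1a1 from 4822 ± 466 to 934 ± 112. In the last interval 5 of the 11 fell and 1 rose (3.41% and 2.55% of all genes), with a median log2 fold change of -0.97, and Col3a1 changed by -2.57 ± 0.21 (SE), adjusted p = 1.76e-09. The ratio of Dcn to Col1a1 counts in a library was 0.11, 0.0904, 0.0814 and 0.0798 at E17, 0.688, 0.72, 0.854 and 1.02 at P24 and 4.75, 2.41, 3.5 and 3.48 at P60, with no overlap between the P24 and P60 libraries. At P1 it was 0.263, 0.107, 0.107 and 0.101, the high value being replicate 1, a library with a strong GC trend. Summed over the lists, SLRP genes came to 839 to 984 CPM against 25871 to 28756 for the fibrillar collagens at E17 and to 5648 to 7368 against 4887 to 6423 at P60. These sums were not scaled to gene length, so they compare reads and not numbers of transcripts.

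**Figure D4:**
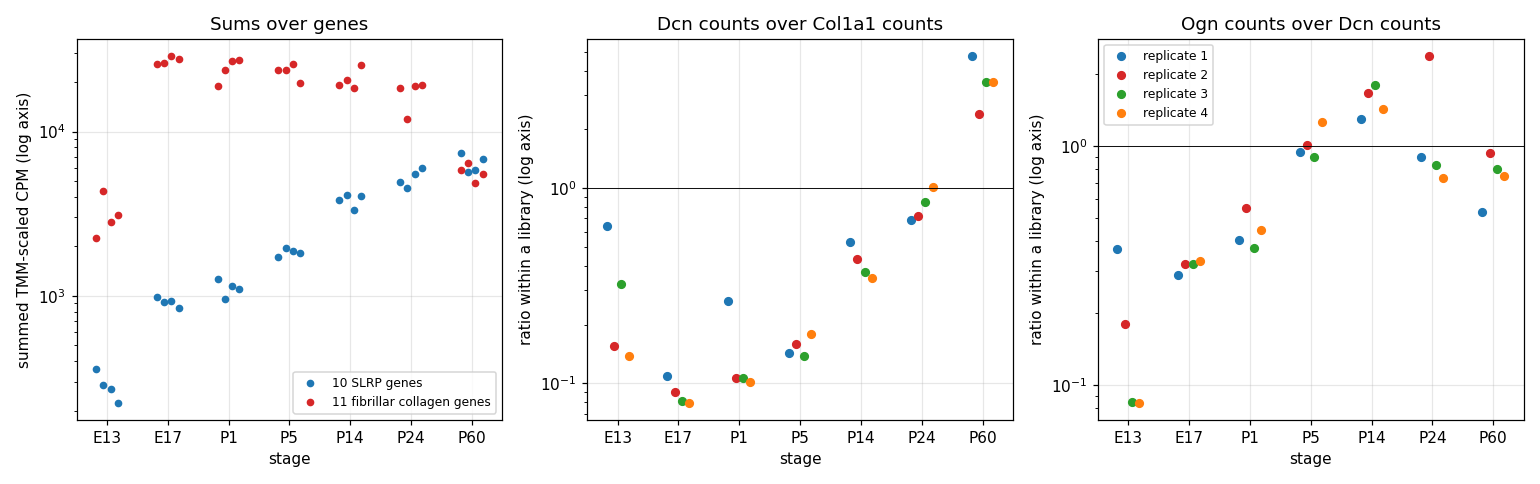
Summed CPM of the 10 SLRP and 11 fibrillar collagen genes in each library by stage (left, log axis), and the within-library ratios of Dcn to Col1a1 (middle) and Ogn to Dcn counts (right). The 2 sums, not scaled to gene length, are far apart at E17 and overlap at P60, the Dcn to Col1a1 ratio is above 2 in all P60 libraries, and the Ogn to Dcn ratio is highest at P14 apart from P24 replicate 2.

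Other matrix partners were mixed. Of 7 fibril-associated collagens and partners, 1 rose and 4 fell from P24 to P60, where 2.55% of all genes rose and 3.41% fell. Col14a1 (FACIT collagen XIV) fell from 708 ± 21.4 to 239.9 ± 41.4 CPM, Col6a3 from 426 ± 164 to 134 ± 27 and Col6a1 from 513 ± 176 to 216 ± 42.4. Of 5 lysyl oxidases, which cross-link collagen, 1 rose and 3 fell from E17 to P60, where 22.2% of all genes rose and 17.5% fell. The one that rose was Lox, from 43.5 ± 8.39 CPM at P5 to 333 ± 72.8 at P14 (2.94 ± 0.26 (SE), adjusted p = 2.08e-09) and 1213 ± 31.4 at P60, whereas Loxl2 went from 427 ± 20.2 at E17 to 41.5 ± 10.3 and Loxl3 from 75 ± 3.96 to 35.3 ± 3.32. Among 8 processing proteases and their enhancers, 7 were tested, and 5 of these rose from E13 to E17 (14.2% of all genes did) while 2 rose and 2 fell from E17 to P60. Mmp14, a membrane-bound metalloproteinase, went from 349 ± 15.8 to 49.97 ± 10.4 CPM, Mmp2 from 379.6 ± 14.5 to 191 ± 31.4 (under 2-fold) and Pcolce, the procollagen C-proteinase enhancer, from 122 ± 10.04 to 141 ± 11, with the P60 difference of Pcolce not past the test.

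Enzymes that build the glycosaminoglycan chains moved in both directions, in numbers to be read against the 22.2% of all genes that rose and the 17.5% that fell from E17 to P60. Of 6 linker-region enzymes, 1 was called from E17 to P60, a fall. Fam20b, the xylose kinase, moved from 91.7 ± 1.23 to 139 ± 6.33 CPM, B3gat3 from 23.4 ± 1.03 to 30.1 ± 5.96 and Xylt2 from 27 ± 3.27 to 21.8 ± 2.96. Of 16 chondroitin and dermatan sulfate enzymes, 15 were tested, of which 1 rose and 3 fell from E17 to P60. Ust, a uronyl 2-sulfotransferase, was highest at P1 (217 ± 6.98 CPM) and at 51.7 ± 3.54 by P60, while Chst3 went from 128 ± 4.41 at E17 to 67.7 ± 4.96 and Dsel from 98.6 ± 14.8 at P1 to 46.5 ± 2.13. Of 6 keratan sulfate enzymes, 2 rose and 2 fell from E17 to P60. Chst2, a GlcNAc 6-sulfotransferase, went from 10.3 ± 0.76 CPM at E17 to 254 ± 17 at P14 and back to 126 ± 19.6, B4galt1 from 53.8 ± 7.36 to 30.9 ± 5.27 and B4galt4 from 14.2 ± 1.66 to 18.5 ± 1.81, the last 2 under 2-fold. Of 10 receptors and ligands that SLRPs bind, 2 rose from E17 to P60, close to the share over all genes, among them Lrp1, an endocytic receptor of decorin, from 243 ± 30.2 to 765 ± 45.5 CPM, whereas Igf1r (109 ± 2.51 and 106 ± 5.73) and Met (88.6 ± 3.93 and 59.5 ± 4.53) were not called.

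Of 7 further genes of the family, 5 passed the filter on low counts. Ecm2, which sits just before Aspn on chromosome 13, rose from 8.68 ± 1.41 CPM at P5 to 32.4 ± 11.5 at P14 (1.90 ± 0.38 (SE), adjusted p = 0.000328) and reached 61.9 ± 23.1 at P60. Epyc (epiphycan, class III) was at 0.06998 ± 0.0873 at E13, 4.58 ± 0.507 at E17 and 9.3 ± 2.5 at P60, and Tsku (tsukushi) fell from 19.6 ± 2.22 at E17 to 5.86 ± 1.45 at P60. Neighbours on chromosome 13 thus shared no single course: Ecm2, Omd and Ogn rose from E17 to P60 and Aspn between them fell. On chromosome 10, Dcn and Lum rose and Kera fell.

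For each gene the 3 others whose stage means ran most alike were sought among 11200 protein-coding genes, by the root mean square difference of centred log2 CPM over 7 stages. For Dcn these were Parp3 (0.068), Pex5l (0.17) and Anxa1 (0.21), for Lum Papss2 (0.082), Faah (0.19) and Gbp7 (0.20), and for Prelp Smoc2 (0.15), Igfbp7 (0.16) and Ifi203 (0.17). For Ogn they were Tnxb, the matrix protein tenascin X, at 0.26, C1ra at 0.44 and Cd9 at 0.45, and for Omd Cav2 at 0.24, Paqr6 at 0.37 and Abcb1a at 0.42. The nearest to Bgn was H2-T22 (0.10), to Aspn Casp12 (0.31), to Podn Cbx7 (0.36), to Fmod Synpo2 (0.53) and to Kera Epha5 (0.86), the last being no close match. Likeness over so few stage means is a loose measure: without E13, Dcn (Parp3), Lum (Papss2) and Omd each kept 1 of the 3, and the other 7 genes kept none.

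The late stages held 1 library apart. P24 replicate 2 was the lowest of its stage for 8 of 9 SLRP genes (Kera set aside), all but Ogn. Set against the average of the remaining P24 libraries, its log2 difference was -2.35 for Fmod, -2.20 for Aspn, -1.75 for Bgn, -1.42 for Prelp, -1.03 for Dcn and -0.62 for Lum, and 0.51 for Ogn. P60 replicate 2 was the lowest for 6 of 9, with -1.75 for Aspn, -1.39 for Fmod and -1.37 for Omd, but 0.04 for Ogn. Marker sums moved with this. In P24 replicates 1 to 4 the 2 mesenchymal markers (Pdgfra and Cd34) summed to 311, 187, 383 and 414 CPM, the 5 epineurial markers to 147, 82.2, 186 and 150.5, the 4 perineurial to 785, 520.2, 775 and 799, the 5 adipocyte to 219, 11, 393 and 234 and the 6 Schwann cell markers to 89675, 102475, 87553 and 84640.1. The first 4 lists were lowest and the Schwann cell list highest in replicate 2. That library was also lowest in endothelial (232, 146, 257 and 232), pericyte and smooth muscle (486, 384, 549 and 489.9) and immune markers (101, 68.5, 106 and 112) and in the fibrillar collagens (18455, 11943, 18916 and 19155). Replicate 2 of P60 was likewise lowest in the first 4 lists and highest in the Schwann cell list, which came to 376, 248, 254 and 305 (mesenchymal), 151, 128, 149 and 167 (epineurial), 1276, 994, 1304 and 1400.0 (perineurial), 243, 209, 509 and 669 (adipocyte) and 47354, 58105, 44776 and 47246 CPM (Schwann cell). It was not lowest in endothelial markers (291, 309, 287 and 299), where it was the highest, nor in pericyte and smooth muscle (588, 567, 537 and 562) or immune markers (100.4, 92, 72.3 and 93.4). In the fibrillar collagens it was also the highest (5803, 6423, 4887 and 5511). What part the cells behind these lists had in the SLRP values was not tested. The ratio of Dcn to Pdgfra counts in a library was chosen after the values were seen, and Pdgfra is itself one of the mesenchymal markers that were low in replicate 2. It was 13.9, 13.8, 15.3 and 13.1 in the P24 libraries and 17.8, 17.7, 17.9 and 18.1 at P60 and 3.24, 3.2, 3.36 and 3.86 at E17. The ratio of Ogn to Pdgfra was 12.5, 32.7, 12.6 and 9.65 at P24, highest in replicate 2. Without P24 replicate 2 and P60 replicate 2, the counts of called SLRP genes were 8, 1, 4, 6, 1 and 1 in the 6 adjacent steps and 9 for P60 against E17, as with all libraries.

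**Figure D5:**
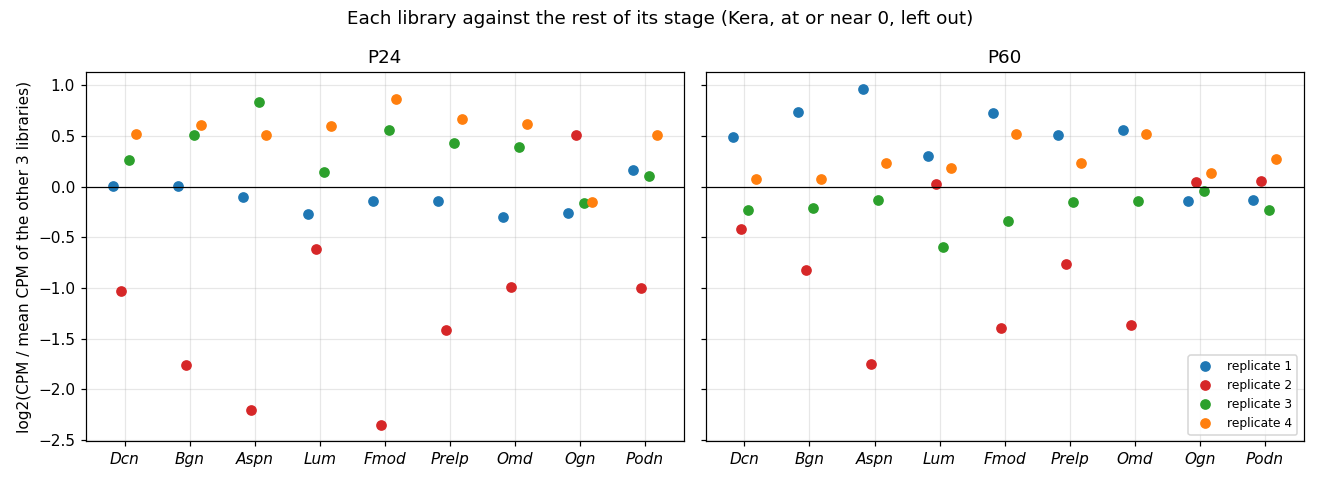
Log2 of each library's CPM over the average of the remaining 3 of that stage (vertical axis) for 9 SLRP genes at P24 (left) and P60 (right). P24 replicate 2 lies below 0 for 8 genes and above 0 for Ogn, and P60 replicate 2 lies below 0 for 6.

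The peeled sheaths are rich in collagen, and their markers rose together with SLRP genes in some steps and not in others. All 5 epineurial markers and 3 of 4 perineurial markers rose from P5 to P14, the step in which 5 SLRP genes and 7.11% of all genes rose. From E17 to P1 the median log2 fold change was -0.90 over the epineurial, -0.68 over the perineurial and 0.23 over the SLRP genes, and from P24 to P60 it was -0.15, 0.52 and 0.13. From E17 to P60 all 9 sheath markers rose (22.2% of all genes), to sums of 128 to 167 (epineurial) and 994 to 1400.0 CPM (perineurial). Neither mesenchymal marker was called by edgeR in a step after E17, and their sum was 216 to 286 CPM at E17 and 248 to 376 at P60. Other cell types moved over the stages too. From E17 to P60 all 4 pericyte and smooth muscle markers, 4 of 5 adipocyte, 2 of 4 endothelial and 2 of 6 Schwann cell markers rose, and from P1 to P5 3 of 4 pericyte and smooth muscle and 3 of 5 adipocyte markers did (4.05% of all genes). Of 4 endoneurial markers, 1 rose and 1 fell from E17 to P60, and of 4 immune markers none was called. The endoneurial sum was 50.9 to 60.9 CPM at E17 and 22.6 to 30.7 at P60. From P5 to P14, where 5 SLRP genes rose, it went from 74.0 to 93.9 down to 15.3 to 25.4 CPM, with 1 of the 4 called lower. The pericyte and smooth muscle markers summed to 119 to 142 CPM at E17 and 537 to 588 at P60, and the adipocyte markers to 55.9 to 77.7 and 209 to 669. Other lists fell from E17 to P60, with 5 of 6 skeletal muscle, 3 of 3 blood and 2 of 2 tested cartilage markers called lower (17.5% of all genes). The skeletal muscle markers summed to 29.5 to 647 CPM at E13 and 8.24 to 30.3 at E17, and the blood markers to 529 to 5322 and 294 to 841. What part the residual sheath or any of these cells had in the SLRP rise was not tested.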

How the data were processed

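RNA from the 28 nerve libraries was prepared by the authors as stranded TruSeq poly-A libraries, aligned with STAR 2.6.1c and counted per gene with featureCounts. The deposited values are raw read counts that the authors had not normalized. The submitters' notes name GRCm38.p5. Whether strand was used in counting is not given in the sources used here. Of 41605 identifiers, 41519 (99.79%) matched GENCODE M21 (GRCm38), the source of symbols, lengths and coordinates. The SLRP genes and lists were chosen with earlier results of these data known. Named partners are the 3 highest in mean CPM of each list. Genes were filtered with filterByExpr (17700 kept), scaled by TMM and tested in 1 quasi-likelihood fit over all stages (edgeR 4.0.16, R 4.3.3), with Benjamini-Hochberg adjustment over all 17700. Limma 3.58.1 and DESeq2 1.42.0 were alternatives, and the code was tested on simulated data. Each SE is the log2 fold change over the square root of F. P-values measure the spread between independent samples of 1 or 2 animals. Bounds cover counting error only. Promoter windows are from RefSeq.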

Additional observations from a re-analysis of the deposited data

Results flagged for a closer look

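Each gene was examined at each stage for a library far from the other 3 by Dixon's criterion at the 95% level. Of 70 gene and stage groups 4 stood out, and chance gives about 1 in 20. Dcn at P14 was low in replicate 3, at 1013 CPM against 1323 to 1383 in the others. Fmod at P1 was high in replicate 3, at 2.44 CPM against 0.547 to 0.708. Ogn at P24 was high in replicate 2, at 2848 CPM against 1931 to 2039, in the library that was lowest for the other SLRP genes. Podn at P14 was high in replicate 1, at 9.56 CPM against 7.60 to 7.91.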

How the results depend on the processing

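Counts of called SLRP genes were steady for E17 vs E13, P1 vs E17, P14 vs P5, P60 vs E17 and the 7 stages together, within 1.5 times under all alternatives run (the DESeq2 Wald test was not run for the 7 stages together). The P5 vs P1 count of 4 became 2 in limma-voom and 2 without the 3 libraries of strong GC slope, where Fmod and Omd were lost. The P24 vs P14 count of 1 became 2 with no fold change minimum. The P60 vs P24 count of 1 became 2 with library size only, 2 in the DESeq2 Wald test, 2 without the E13 libraries, 2 without the 3 libraries of strong GC slope, 2 with the GC trend removed, 3 with no fold change minimum and 0 on the 2 stages alone; in 4 of these the gene added was Kera, which is at the floor in both stages. Leaving out 1 library gave 8 to 8, 1 to 1, 2 to 3 (lowest without P1 replicate 1 or 4), 6 to 6, 1 to 1 and 0 to 2 in the 6 adjacent steps (0 without P24 replicate 1 or P60 replicate 1 or 4, and 2 without P24 replicate 4), 9 to 9 for P60 vs E17 and 10 to 10 over the 7 stages. The cause was not tested. The log2 fold change of Omd from P24 to P60 was 0.84 to 1.27 over the alternatives (adjusted p 0.00886 to 0.125), and that of Omd from P1 to P5 was 1.03 to 1.30 (0.00219 to 0.188). The values that passed the adjusted p but not 2-fold also lost it under some alternatives, the highest adjusted p being 0.122 for Dcn from P14 to P24, 0.165 for Dcn from P24 to P60, 0.137 for Lum from P5 to P14, 0.0927 for Podn from P24 to P60 and 0.129 for Bgn from E17 to P60. Omd from E13 to E17 was 2.45 to 6.58, the highest without the 3 libraries of strong GC slope, where both E13 libraries left were at 0 and the value is no bound. For Fmod from P1 to P5 the log2 fold change was 1.93 to 2.96 (0.00379 to 0.141).

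Changes near 0 turned in sign, none of them past the test. Lum from E17 to P1 was -0.0045 with library size only, -0.0066 in limma-voom and -0.028 without the 3 libraries of strong GC slope. With library size only, Bgn was -0.17 from P1 to P5 and 0.076 from P24 to P60, and Aspn was -0.032 from P5 to P14. Fmod from P14 to P24 was -0.020 with a total count of at least 10 and -0.0049 with the GC trend removed. Leaving out 1 library turned 23 further values of 10 results, all of them at most 0.5 in size with all libraries. The ranges were -0.029 to 0.19 for Lum, -1.31 to 0.41 for Fmod and -0.062 to 0.59 for Omd from E17 to P1, -0.082 to 0.16 for Bgn and -0.34 to 0.090 for Podn from P1 to P5, -0.039 to 0.27 for Aspn from P5 to P14, -0.22 to 0.35 for Aspn and -0.27 to 0.34 for Fmod from P14 to P24, and -0.31 to 0.14 for Bgn and -0.078 to 0.37 for Prelp from P24 to P60.

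Deviations of same-numbered libraries from their stage correlated at -0.059 to 0.29, over 0.1 in at most 2 of 4 pairs per comparison. For P1 vs E17, 3 of 4 libraries correlated best with the one of their own number. The numbers were not taken as pairs in the main fit, and a fit with the replicate number as a block was run as an alternative. With the replicate block, the P60 vs P24 count was 0, because Omd was at 0.99 (0.98 with the GC trend removed as well, where the 1 call was Kera), the Fmod change from P14 to P24 was -0.037 (-0.0098 with the GC trend removed as well), and no other count moved. Limma-voom gave larger rises from E13 to E17 for Aspn (5.73), Kera (6.83), Ogn (3.95) and Omd (4.61, adjusted p = 0.0704).

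With library size only, the median change over all genes went to -0.33 (E17 vs E13), -0.11, -0.19 and -0.17 in the first 4 steps, from -0.08, 0, 0 and 0, to 0.05 and 0.10 in the last 2 and to -0.31 for P60 vs E17. Rises as a percentage of all calls then went from 40.1% to 28.7%, 53.8% to 43.0%, 69.4% to 44.7% and 59.1% to 46.2% in the first 4 steps, the other way from 57.1% to 64.9% (P24 vs P14) and 42.7% to 52.5% (P60 vs P24), and from 56.0% to 42.0% for P60 vs E17. SLRP calls kept their counts of 7 higher and 1 lower, 1 and 0, 5 and 1, and 1 and 0 for E17 vs E13, P1 vs E17, P14 vs P5 and P24 vs P14, and went from 3 and 1 to 2 and 1 for P5 vs P1, from 1 and 0 to 2 and 0 for P60 vs P24 and from 7 and 2 to 6 and 2 for P60 vs E17, where Lum was at 0.91. Without a fold change minimum the calls over all genes were 11014, 5225, 3114, 5233, 964 and 2845 in the 6 steps and 11373 for P60 vs E17, and limma-voom called 781 for P24 vs P14. Depth limits Kera after P5 and Omd before P5, where libraries held few reads.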
